A study of Mus musculus with 16 samples.

Results

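Ubiquinone, or coenzyme Q, is the lipid that carries electrons between the dehydrogenases of the inner mitochondrial membrane and complex III of the respiratory chain. The transcripts of 10 mouse genes for its synthesis are described here: Pdss1, Pdss2, Coq2, Coq3, Coq4, Coq5, Coq6, Coq7, Coq8a and Coq9. They are 10 of the 55536 genes counted. The set was chosen from the pathway's known enzymes, around Coq2, which had been picked out by its genotype values in these same libraries. The genotype values of Coq2 are therefore given as a description, with no test, and counts of genotype calls cover the other 9 genes. The comparison of the tissues played no part in the choice and was tested for all 10.

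The libraries were made from 2 tissues of 8 female mice, red gastrocnemius (an oxidative part of the calf) and visceral fat. The mice comprised 4 Cre-control mice (131, 137, 138 and 11) and 4 "Conditional MusMyD88-/-" mice (139, 958, 960 and 29), called knockouts below, in which the deletion of MyD88, the adaptor of most Toll-like receptors, is aimed at muscle. Every mouse of both genotypes ran on wheels for 5 weeks and then lived in a small cage for 8 days, and no group lacked this treatment. The sources used here give neither the age of the mice nor the promoter that drives Cre. Separate animals underlie the 4 libraries of each group, and a number shared by a muscle and a fat library was read as 1 mouse.

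In the known pathway, Pdss1 and Pdss2 form the enzyme that builds the long isoprenoid tail, and Coq2 joins this tail to 4-hydroxybenzoate, the precursor of the ring. The ring is then modified by Coq6 (a hydroxylase), Coq3 (an O-methyltransferase), Coq5 (a C-methyltransferase) and Coq7 (the hydroxylase before the last methylation). Coq9 is a lipid-binding partner of Coq7, Coq4 takes part in the complex that holds the ring-modifying enzymes, and Coq8a is an atypical kinase-like protein needed for the pathway. Muscle fibres, rich in mitochondria, are among the tissues affected when this synthesis fails in inherited disease.

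Coq2 (ENSMUSG00000029319) lies on the minus strand at chr5:100654723-100675140 of GRCm38. Coq8a is at chr1:180165238-180199602, minus strand, and Coq9 at chr8:94838321-94854895, plus strand. The other genes lie on chromosomes 2 (Pdss1, Coq4), 10 (Pdss2), 4 (Coq3), 5 (Coq5), 12 (Coq6) and 7 (Coq7), and all 10 are protein-coding. Several overlap a gene of the other strand: Coq4 overlaps Trub2, Coq6 overlaps Fam161b, Coq8a overlaps Cdc42bpa and Coq9 overlaps Ciapin1. Pdss1 overlaps Abi1, A130006I12Rik and Gm14441, Pdss2 overlaps Rps19-ps11 and Gm3699, and Coq5 overlaps Gm13829. Pdss1 and Pdss2 also overlap genes of their own strand. The strand setting of the counting is not given, so reads of such partners cannot be told apart here. The antisense partner of Coq2, Gm15777, was at 0 CPM (counts scaled to the library total) in 13 of 16 libraries and at most at 0.0929 CPM.

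RefSeq start regions (GRCm38.p6, 250 bases before to 50 after the start, 5′ to 3′ along the gene) were found for 9 of the 10 genes. Those of Coq2, the gene whose genotypes did not overlap in either tissue, and of Coq8a and Coq9, the genes with the highest muscle-over-fat values, are printed because the results turn on these 3. Capitals mark the NRF1 half-site TGCGCA, which reads the same on both strands. NRF1 is a factor known for binding promoters of mitochondrial genes.
Coq2, chr5:100674207-100674506, minus strand: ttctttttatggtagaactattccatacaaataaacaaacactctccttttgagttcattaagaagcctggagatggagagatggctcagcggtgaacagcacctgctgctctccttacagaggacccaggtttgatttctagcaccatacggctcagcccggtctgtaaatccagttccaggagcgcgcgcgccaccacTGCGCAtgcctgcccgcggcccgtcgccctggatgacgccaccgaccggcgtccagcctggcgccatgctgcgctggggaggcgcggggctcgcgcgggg
Coq8a, upstream start, chr1:180195971-180196270, minus strand: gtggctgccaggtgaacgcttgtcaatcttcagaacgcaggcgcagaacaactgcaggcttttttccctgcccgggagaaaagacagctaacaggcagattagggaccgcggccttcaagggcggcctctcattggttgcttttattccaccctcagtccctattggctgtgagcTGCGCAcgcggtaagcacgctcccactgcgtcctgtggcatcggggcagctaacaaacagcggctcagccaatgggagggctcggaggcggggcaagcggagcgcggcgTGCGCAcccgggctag
Coq8a, downstream start, chr1:180193436-180193735, minus strand: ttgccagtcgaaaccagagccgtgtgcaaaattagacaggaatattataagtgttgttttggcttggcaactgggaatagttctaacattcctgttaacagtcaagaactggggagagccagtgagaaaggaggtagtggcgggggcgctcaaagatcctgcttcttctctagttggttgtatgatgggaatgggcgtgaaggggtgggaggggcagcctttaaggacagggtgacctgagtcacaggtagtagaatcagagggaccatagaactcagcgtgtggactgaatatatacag
Coq9, chr8:94838163-94838462, plus strand: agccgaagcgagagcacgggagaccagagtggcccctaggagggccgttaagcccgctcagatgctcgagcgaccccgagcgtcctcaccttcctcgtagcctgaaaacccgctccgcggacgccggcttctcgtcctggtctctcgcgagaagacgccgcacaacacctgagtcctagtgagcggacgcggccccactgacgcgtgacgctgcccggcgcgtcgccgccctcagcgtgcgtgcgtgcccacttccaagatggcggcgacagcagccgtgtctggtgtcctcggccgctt
The half-site begins 50 bases before the RefSeq start of Coq2. In the upstream Coq8a region it begins 75 bases before the start and again at base 35 after it, and neither the downstream Coq8a region nor that of Coq9 holds it. The Coq2 region and both Coq8a regions lie inside the gene spans given above, so these RefSeq starts are not the ends of those spans. Of 32851 start regions of this length, 7.76% held TGCGCA, 8.86% the ETS site CCGGAAG and 4.72% the ERR half-site AAGGTCA, searched on both strands. CCGGAAG was found in the regions of Pdss1, Pdss2 and Coq6, TGCGCA also in 1 of the 2 Coq3 regions, and AAGGTCA in that of Pdss1. No match was found for Coq4, Coq7 and Coq9. G and C made up 68.3% of the Coq9 region, 59.3% of that of Coq2, 61.7% of the upstream and 48.7% of the downstream Coq8a region, against a median of 52.7% over all regions. A match describes these letters and not binding.

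Libraries held 15203806 to 21747345 counts in muscle and 13242243 to 19114782 in fat. Myd88, the targeted gene, had muscle levels of 2.04, 2.11, 3.42 and 2.83 CPM in controls 131, 137, 138 and 11 and of 2.24, 2.04, 1.68 and 1.98 CPM in knockouts 139, 958, 960 and 29. Fat levels were 14.1 to 20.2 CPM (controls) and 13.8 to 17.7 CPM (knockouts). Which exons are deleted is not stated, and these values include all exons. The tissue labels matched their markers: 8 skeletal muscle genes summed to 104100 to 130000 CPM in muscle and 505 to 5257 CPM in fat, and 7 adipocyte genes to 159 to 362 CPM in muscle and 6658 to 29280 CPM in fat. Mouse 138, a control, had an unusual fat library, with 6658 CPM of adipocyte genes, 20560 CPM of smooth muscle genes against at most 1071 CPM in the other fat libraries, and 1994 CPM of urothelial genes against at most 31.8 CPM. In muscle, the control libraries of mice 131 and 11 held 27970 and 19830 CPM of CT010467.1, annotated as a ribosomal RNA gene, against 16.8 to 35.2 CPM in the other 6.

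Of the 10 genes, Coq8a and Coq9 had the highest muscle-over-fat values under both scalings described below (plot of levels by group). Coq8a transcripts ranged from 268 to 610 CPM in muscle, with a median of 458, and from 35.5 to 55.0 CPM in fat, with a median of 41.7. Coq9 followed, at 169 to 238 CPM in muscle, with a median of 191, and 57.2 to 98.4 CPM in fat, with a median of 88.7. Neither gene's range in muscle touched its range in fat, on a scale where 11.1% of 17084 genes were called higher in muscle. In bulk tissue, fewer cells of a type and less RNA per cell cannot be told apart.

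**Figure D1:**
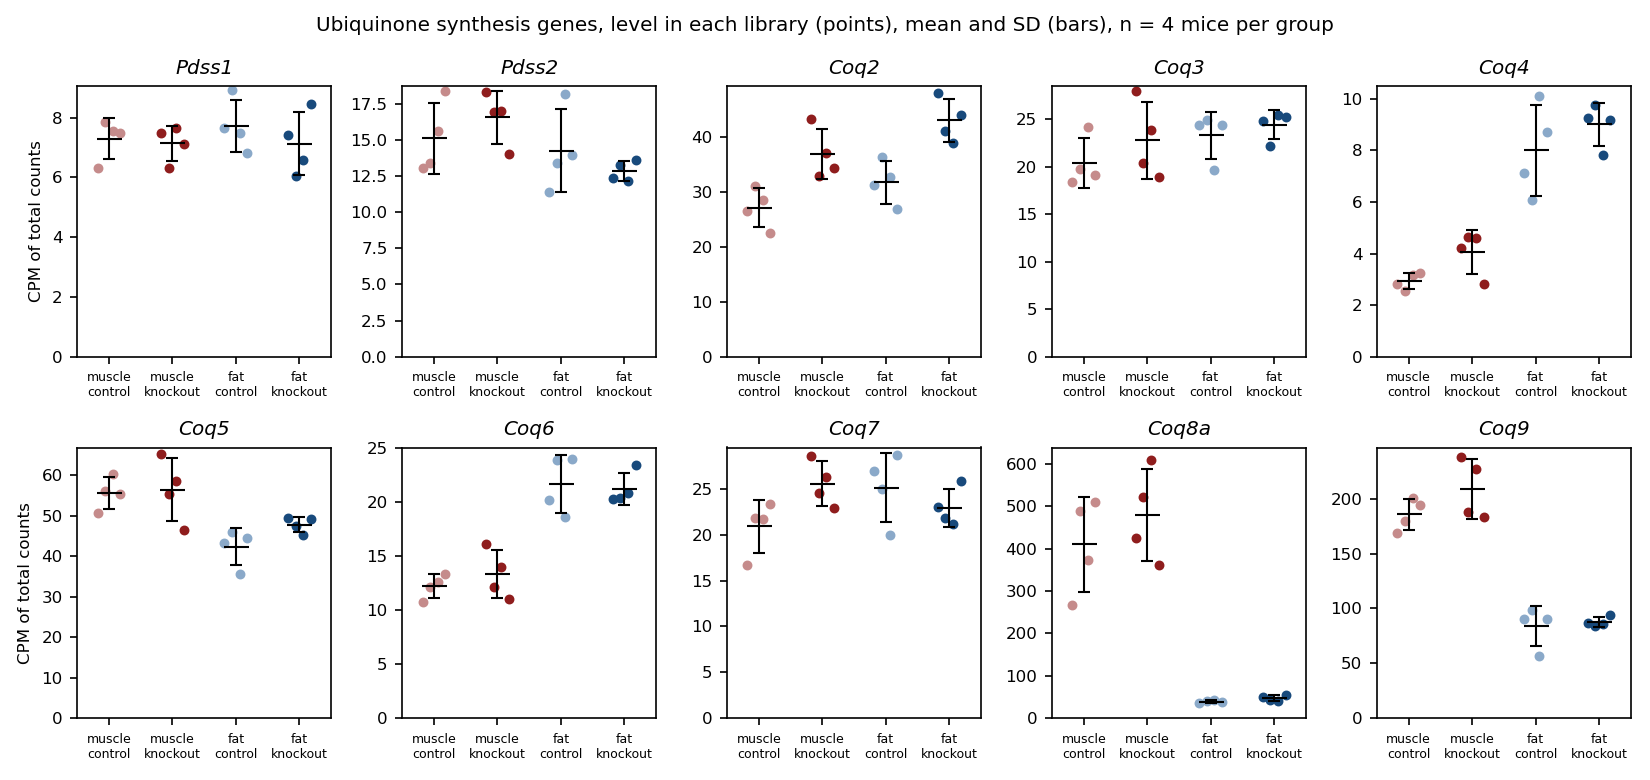
Levels of the 10 ubiquinone synthesis genes in CPM of total counts, 1 point per library, with mean and SD for 4 mice in each tissue and genotype. Coq8a and Coq9 were higher in every muscle library than in every fat library. On this scale Coq4 and Coq6 were lower in every muscle library, whereas with TMM scaling Coq4 was at -0.09 and Coq6 at 0.44 (log2, muscle over fat), and the Coq2 knockouts lay above the Coq2 controls in both tissues.

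The tail-building enzyme was at a similar share of the counts in both tissues. Pdss1 was at 6.31 to 7.86 CPM in muscle (median 7.48) and 6.04 to 8.91 CPM in fat (median 7.45). Pdss2 was at 13.02 to 18.4 CPM in muscle (median 16.3) and 11.4 to 18.2 CPM in fat (median 13.3), so the ranges of both subunits overlapped between tissues. Coq2, the next step, was at 22.6 to 43.2 CPM in muscle (median 32.0) and 26.8 to 48.0 CPM in fat (median 37.6).

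Of the ring-modifying enzymes, on the same scale of library totals, Coq6 was the one whose ranges did not overlap. The Coq5 methyltransferase was at 46.6 to 65.4 CPM in muscle (median 55.7) and 35.7 to 49.4 CPM in fat (median 45.6). The Coq3 methyltransferase was at 18.4 to 28.0 CPM in muscle (median 20.1) and 19.6 to 25.4 CPM in fat (median 24.6), and the ranges of both enzymes overlapped between tissues. Coq7, the late hydroxylase, was at 16.7 to 28.6 CPM in muscle (median 23.1) and 19.9 to 28.6 CPM in fat (median 24.0). Coq6, the hydroxylase that acts early on the ring, was at 10.8 to 16.1 CPM in muscle (median 12.4) and 18.6 to 24.0 CPM in fat (median 20.6), a reading that turns over with TMM scaling (next paragraph). Coq4, of the enzyme complex, was at 2.56 to 4.65 CPM (median 3.20) in muscle and 6.10 to 10.1 CPM in fat (median 8.95), also without overlap on this scale. On it 79.9% of 17084 genes were called lower in muscle, and the share of all genes without overlap was not counted.

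How these differences read depends on the scaling. The titin transcript alone took 21.4 to 23.9% of the counts in muscle and 0.0733 to 1.17% in fat. With the TMM scaling of edgeR, which sets the bulk of genes level, 9 of the 10 genes were called higher in muscle at an adjusted p under 0.05 (edgeR quasi-likelihood test) and 0 lower, against 35.7% of 17084 genes called higher and 44% called lower. Scaled by library totals, the median of all genes moved from -0.16 to -1.36 (log2, muscle over fat), and the split became 3 higher (Coq5, Coq8a and Coq9) and 3 lower (Coq2, Coq4 and Coq6), against 11.1% of all genes called higher and 79.9% called lower. Only Coq5, Coq8a and Coq9 were called higher under both scalings. The Coq8a difference was 4.56 with TMM (SE 0.16, adjusted p = 7.81e-13) and 3.36 with library totals. For Coq9 the values were 2.37 (SE 0.14, adjusted p = 2.56e-10) and 1.19, and for Coq5 1.50 (SE 0.10, adjusted p = 1.07e-09) and 0.31. Pdss2, at 1.43 with TMM, was at 0.22 with library totals, where its adjusted p was 0.0548. Coq4 was at -0.09 with TMM (adjusted p = 0.493) and -1.30 with library totals. The remaining 5 turned over with the scaling: Pdss1 went from 1.15 to -0.04, Coq7 from 1.13 to -0.06, Coq3 from 1.03 to -0.15, Coq2 from 0.97 to -0.23 and Coq6 from 0.44 to -0.75. Over the 10 genes the median was 1.14 with TMM, 1.29 above that of all genes tested, and -0.05 with library totals, 1.31 above it.

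A comparison within each library depends on the scaling only through the 0.5 added to CPM, which weighs most at low levels such as those of Coq4. Each gene was set against the mean of 12 genes of the tricarboxylic acid cycle, a mitochondrial pathway outside ubiquinone synthesis, as log2(CPM + 0.5), and muscle was compared with fat within each of the 8 mice (plot of relative differences). Relative to this list, Coq8a was higher in muscle by 2.86 ± 0.42 (SD, n = 8) and Coq9 by 0.74 ± 0.15, in 8 of 8 mice each. Lower in 8 of 8 mice were Coq4 at -1.64 ± 0.40, Coq6 at -1.19 ± 0.23, Coq2 at -0.68 ± 0.25, Coq3 at -0.61 ± 0.16, Coq7 at -0.51 ± 0.24 and Pdss1 at -0.49 ± 0.20. Each of these 8 had a two-sided exact permutation p of 0.00781, the smallest that 8 mice can give, in a family of 10 such tests. The Coq5 difference, -0.15 ± 0.17, was negative in 7 of 8 mice (exact permutation p = 0.0469), and that of Pdss2, -0.24 ± 0.41, in 6 of 8 (exact permutation p = 0.0781). Set against 9 genes of complex III instead, the values ran from -1.62 (Coq4) to 2.88 (Coq8a). The list of 12 genes itself was 0.46 ± 0.27 higher in muscle on the scale of library totals. Its median muscle-over-fat value was 1.80 above that of all genes tested with TMM, and 1.82 above it with library totals. A gene at the median of all genes would thus also be lower in muscle relative to this list. The share of all genes that lie below the list was not counted. Across the pathway the tissue difference thus ran from Coq4, the lowest in muscle relative to this list, to Coq8a, the highest.

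**Figure D2:**
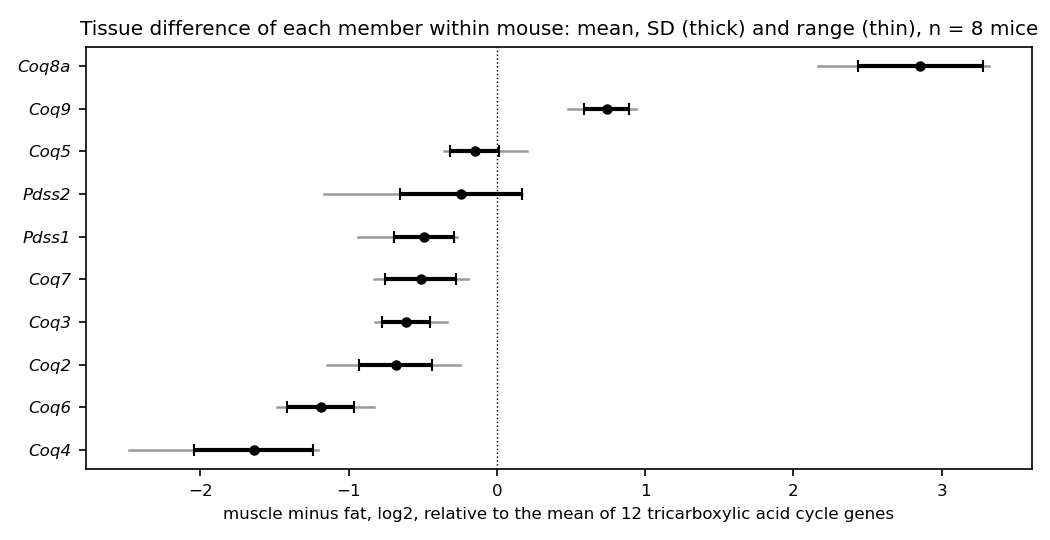
Muscle minus fat within mouse for each gene, as log2 relative to the mean of 12 tricarboxylic acid cycle genes. Points are means over 8 mice, thick bars the SD and thin bars the range. Coq8a at 2.86 and Coq9 at 0.74 lie to the right of 0, Coq5 and Pdss2 have ranges that cross 0, and the other 6 lie to the left.

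Per exon length, which allows genes to be compared with each other, the order of levels changed with the tissue. In muscle Coq8a led with 84.0 ± 20.5 CPM per kb and Coq9 followed with 64.6 ± 7.73 (SD, n = 8), with overlapping ranges. Coq5 came next at 18.5 ± 1.90 CPM per kb and Coq2 at 12.2 ± 2.46, also overlapping, and below them were Coq3 at 7.20, Coq6 at 4.07, Coq7 at 3.61, Pdss2 at 2.65, Pdss1 at 1.70 and Coq4 at 1.03. In fat Coq9 led with 28.1 ± 4.10 CPM per kb, with no library touching the range of Coq5 at 14.9 ± 1.44. Coq2, at 14.3 ± 2.68 CPM per kb, overlapped with Coq5 above it and with Coq8a below it, at 8.18 ± 1.21. Coq3 at 7.96 and Coq6 at 6.83 CPM per kb also overlapped with their neighbours, and Coq7 at 3.73, Coq4 at 2.50, Pdss2 at 2.27 and Pdss1 at 1.75 closed the order. Coq8a thus ranked above Coq2, Coq5 and Coq9 in muscle and below them in fat. Its share of the summed counts of the 10 genes was 46.1 to 59.4% in muscle and 11.9 to 16.3% in fat.

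Coq8a has a close paralogue, Coq8b, and their levels differed between the tissues in opposite directions (plot of paralogue shares). Coq8a was the larger part of the pair in both tissues. Coq8b was at 1.82 to 3.47 CPM in muscle (median 2.50) and 20.7 to 28.4 CPM in fat (median 24.9), lower in muscle under both scalings (-2.09 with TMM, SE 0.12, adjusted p = 2.73e-10, edgeR; -3.29 with library totals). Per exon length, Coq8a made up 99.5% ± 0.13 of the pair in muscle and 65.0% ± 2.68 in fat (SD, n = 8). The ratio of Coq8a to Coq8b was 139 to 284 in muscle and 1.6 to 2.16 in fat. Coq10a and Coq10b, paralogues that code for ubiquinone-binding proteins, also differed in their shares, although Coq10b, unlike Coq8b, was not lower in muscle under both scalings. Coq10a was at 119 to 174 CPM in muscle and 14.4 to 21.5 CPM in fat, 4.29 higher in muscle with TMM (SE 0.08, adjusted p = 5.54e-15) and 3.09 with library totals. Coq10b was at 19.6 to 32.3 CPM in muscle and 24.4 to 71.1 CPM in fat, where the highest value was that of mouse 138, and its difference was 0.66 with TMM (SE 0.15, adjusted p = 0.000977) and -0.58 with library totals. Coq10a made up 92.2% ± 1.26 of its pair in muscle and 49.6% ± 6.80 in fat. The counting of reads shared by paralogues is not stated.

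**Figure D3:**
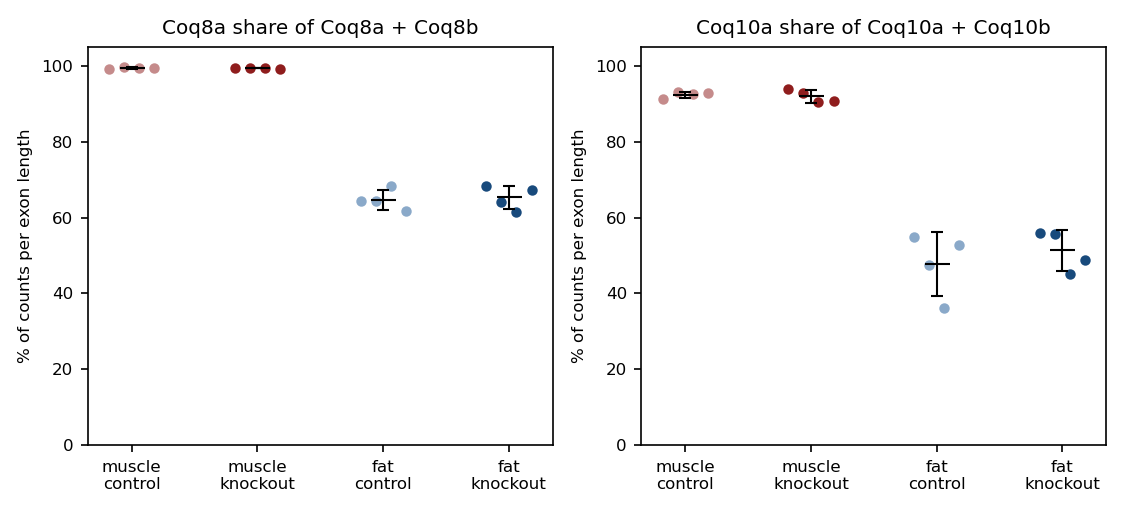
Share of each pair of paralogues taken by Coq8a (left) and Coq10a (right), as percent of counts per exon length, 1 point per library, with mean and SD for 4 mice a group. Coq8a was at 99.3 to 99.6% in muscle and 61.5 to 68.4% in fat, and Coq10a at 90.6 to 94.1% and 36.1 to 56.1%.

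Muscle RNA was present in the fat libraries in small and unequal amounts. The 8 skeletal muscle genes, none at 0, stood in fat at 0.408 to 4.25% of their mean in muscle. In the fat library with the least of them, that of mouse 960, Coq8a was at 40.2 CPM. It was at 40.7 CPM in mouse 137, with 0.545%, and at 50.5 CPM in mouse 139, with 4.25%.

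Genes that use ubiquinone, belong to isoprenoid supply or regulate mitochondria were read in the same way. All 9 complex III genes, which oxidise ubiquinol, were called higher in muscle with TMM (edgeR, adjusted p under 0.05), led by Uqcrc1 at 2.20, and 7 of the 9 were with library totals. Of 11 genes of enzymes that reduce ubiquinone, with the subunits of succinate dehydrogenase counted separately, 8 were called higher with TMM. Among the 8 was the succinate dehydrogenase subunit Sdhb at 2.25. Called lower were 2, the choline dehydrogenase Chdh at -5.30 and the sulfide oxidoreductase Sqor at -0.76. With library totals 4 were called higher and 4 lower. Of 12 tested genes of isoprenoid supply, 10 were called lower in muscle with TMM, and the squalene synthase gene Fdft1 was called higher at 0.98. Not all 12 make the units of the tail, since the list also holds genes of other branches, Fdft1 among them. With library totals all 12 were called lower, on a scale where 79.9% of all genes were. Among them Acat2 was at -3.90, Pmvk at -2.05 and Idi1, the isopentenyl diphosphate isomerase, at -1.87 with TMM. Of 10 other ubiquinone genes tested, 6 were called higher and 3 lower with TMM, and 3 and 5 with library totals. Coq10a and the mitochondrial phosphatase Pptc7 (2.92) led the higher ones, and Aifm2, a ubiquinone reductase of the plasma membrane, was the lowest (-3.03). All 6 regulators of mitochondrial genes were called higher with TMM, with Ppargc1a at 3.88 and Esrra at 1.93, and 3 higher and 2 lower with library totals.

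Between the genotypes, Coq2 was the gene of the pathway whose libraries separated, and they did so in both tissues. In muscle it was at 26.5, 31.0, 28.5 and 22.6 CPM in control mice 131, 137, 138 and 11 and at 43.2, 32.9, 37.1 and 34.4 CPM in knockouts 139, 958, 960 and 29. In fat it was at 31.2, 36.3, 32.7 and 26.8 CPM in the same controls and at 48.0, 41.1, 38.9 and 44.0 CPM in the same knockouts. Every knockout lay above every control in each tissue, and the lowest control of both tissues was mouse 11 and the highest knockout mouse 139. The means were 27.2 ± 3.56 CPM in controls and 36.9 ± 4.57 CPM in knockouts in muscle, and 31.8 ± 3.93 and 43.0 ± 3.92 CPM in fat (SD, n = 4 each). These values chose the gene and carry no test. The log2 difference, knockout over control, was 0.37 (SE 0.10) in muscle and 0.46 (SE 0.14) in fat, and the difference between the tissues was -0.09 (SE 0.18). Leaving out 1 mouse at a time gave 0.29 to 0.42 in muscle and 0.38 to 0.55 in fat, with 0.39 in fat without mouse 138. Without both muscle libraries rich in CT010467.1, those of mice 131 and 11, it was 0.27 in muscle.

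Separation of this kind was counted over all genes on CPM with TMM scaling. It was found for 1.85% of 14183 genes in muscle (knockouts above controls) and for 3.47% of 16323 genes in fat. In both tissues it was found for 0.0367% of 13629 genes, which are 5 genes. They are named here after their values were seen: Coq2, the interferon-inducible GTPase gene Gbp9, the peptide transporter gene Tap2, Gm45844 and Gm48880. Another 5 genes had all knockouts below all controls in both tissues. Both tissues came from the same mice, so they are not independent. Gbp9 lies on the same chromosome as Coq2, 4.40 Mb away. Of the 10 ubiquinone synthesis genes, the other 9 overlapped between genotypes in muscle and in fat.

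Summed levels of some cell type markers, in CPM of library totals and without the TMM scaling of the shares above, also separated the genotypes. In muscle, 2 of 13 marker lists did so: 7 macrophage genes, with sums of 36.4 to 55.6 CPM among controls and of 58.5 to 81.6 CPM among knockouts, and 3 brown adipocyte genes, at 1.94 to 2.79 and 2.80 to 5.16 CPM. No macrophage gene was at 0 and 0 of 7 were called. Of the brown adipocyte genes 1 was at 0 in the knockouts and 1 was tested. Slow fibre genes summed to 2016 to 2575 CPM among controls, to 4089 to 4372 CPM in knockouts 139, 958 and 960, and to 1919 CPM in knockout 29, whose Coq2 level of 34.4 CPM lay among the other knockouts. In fat, 3 lists separated: 4 endothelial genes, with sums of 340 to 634 CPM among controls and of 636 to 725 CPM among knockouts, 5 fibroblast genes, at 2395 to 5251 and 1212 to 2318 CPM, and 5 pancreatic acinar genes, at 8.03 to 19.4 and 4.47 to 7.77 CPM. None of the endothelial or fibroblast genes was at 0, and 0 of their 9 were called. Of the fibroblast genes 3 were lower and 2 higher in the knockouts (log2 -1.06 to 0.21, edgeR). Of the acinar genes 3 were at 0 in controls and 2 in knockouts, and 0 of 1 tested was called. The endothelial gap in fat lay between control 131 and knockout 958, with TMM factors of 1.34 and 1.55. That of the brown adipocyte genes lay between control 138 (0.658) and knockout 960 (0.672). That of the acinar genes lay between control 11 (1.515) and knockout 139 (1.45). Dividing by these factors closes these gaps, so they hold on library totals only. The part of the marker lists in the Coq2 difference was not tested.

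**Figure D4:**
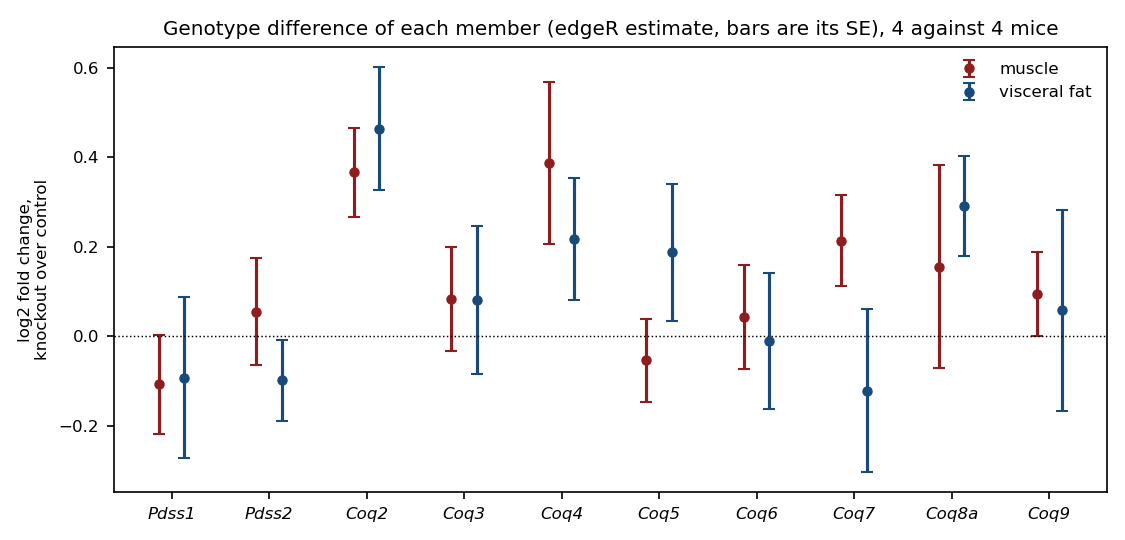
Log2 difference, knockout over control, of each of the 10 genes in muscle and in visceral fat, estimated by edgeR from 4 against 4 mice, with bars of 1 SE. Coq2 stands at 0.37 and 0.46, and the other 9 genes lie between -0.11 and 0.39 in muscle, and between -0.12 and 0.29 in fat.

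None of the other 9 genes was called between genotypes. In muscle 0 of 9 passed an adjusted p under 0.05 in edgeR, and 0 of 9 had an unadjusted p under 0.05, where 0.0141% and 5.04% of 14183 genes did. DESeq2 and limma voom also called 0 of 9. The largest values in muscle were those of Coq4 and Coq7. Coq4 was at 2.83, 2.56, 3.16 and 3.24 CPM in controls 131, 137, 138 and 11 and at 4.24, 4.64, 4.59 and 2.81 CPM in knockouts 139, 958, 960 and 29 (log2 0.39, SE 0.18, edgeR adjusted p = 0.949). Knockouts 139, 958 and 960, those with the high slow fibre sums, lay above all controls, and knockout 29 did not. Whether slow fibre content has a part in the Coq4 or Coq7 values was not tested. The Coq7 hydroxylase was at 16.7, 21.8, 21.7 and 23.3 CPM in the same controls and 28.6, 24.5, 26.2 and 22.9 CPM in the same knockouts (log2 0.21, SE 0.10, edgeR adjusted p = 0.949). On library totals mouse 29 alone lay inside the control range of Coq7. Divided by the TMM factors, 0.6333 for control 11 and 0.6724 for knockout 958, knockout 958 lies inside that range too. The other 7 ran from -0.11 (Pdss1) to 0.16 (Coq8a, SE 0.23). Coq8a, the transcript with the most counts, spread widely within both groups: 268, 490, 374 and 509 CPM in controls and 426, 521, 610 and 362 CPM in knockouts.

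In fat 0 of the 9 were called in edgeR, DESeq2 or limma voom, where 0.00613% of 16323 genes were called in edgeR, and 1 of 9 had an unadjusted p under 0.05, against 7.99%. That gene was Coq8a, at 35.5, 40.7, 42.7 and 38.9 CPM in controls 131, 137, 138 and 11 and at 50.5, 43.0, 40.2 and 55.0 CPM in knockouts 139, 958, 960 and 29 (log2 0.29, SE 0.11, edgeR adjusted p = 0.618). On library totals, the knockouts above all controls were 139, 958 and 29. With TMM factors of 1.456 for control 137, 1.553 for knockout 958 and 1.431 for knockout 960, this order changes. Divided by the factors, knockout 958 falls below control 137 and knockout 960 lies above all controls. Skeletal muscle genes stood at 4.25% of their muscle mean in the fat of mouse 139 and at 2.66% in mouse 29. They were at 1.34% in mouse 958 and at 0.408% in mouse 960. In the controls that percentage was 0.545 to 1.24 in mice 131, 137 and 11, and 4.13 in mouse 138. Des, on the skeletal muscle list, is also on the smooth muscle list, which was high in the fat of mouse 138. Titin took 0.531% of the counts in the fat of mouse 138 and 1.17% in that of mouse 139. The part of muscle RNA in the Coq8a values was not tested. The other 8 ran from -0.12 (Coq7, SE 0.18) to 0.22 (Coq4, SE 0.14). Coq9 was lowest in the fat of mouse 138, at 57.2 CPM against 83.6 to 98.4 CPM in the other 7 libraries. Without that mouse the Coq9 difference went from 0.06 to -0.14 and that of Coq3 from 0.08 to -0.06.

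The genotype difference was also compared between tissues. None of the 9 genes passed an adjusted p under 0.05 for this interaction in edgeR, DESeq2 or limma voom, 0% of 17084 genes did in edgeR, and 0 of 9 had an unadjusted p under 0.05, against 7.19%. The values, muscle minus fat, ran from -0.23 (Coq5, SE 0.19, adjusted p = 0.812) to 0.35 (Coq7, SE 0.22, adjusted p = 0.737). The median over the 9 was 0.04, against 0.03 over all genes tested. In muscle and in fat the medians over the 9 were 0.08 and 0.06, against 0.00 and -0.01 over all genes.

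The paralogues and the neighbouring pathway lists gave 0 calls between genotypes in either tissue. Coq8b was at 0.28 (SE 0.20) in muscle and 0.23 (SE 0.13) in fat, and Coq10a at 0.08 and -0.10. Coq10b was at 0.17 in muscle and -0.35 in fat. Without mouse 138, whose fat library held the highest Coq10b level, the fat value was -0.06, and that of Coq8b was 0.12. Of the 6 lists, none had a called gene among 9 to 12 tested genes (6 for the regulators). Ppargc1a, the coactivator of mitochondrial genes, was at -0.58 in muscle (SE 0.10, adjusted p = 0.128, edgeR) and 0.02 in fat. Nqo1, a quinone reductase, was at -0.18 in muscle and -2.24 in fat (SE 0.93, adjusted p = 0.618), and the fat value was -0.23 without mouse 138. Uqcrq of complex III was at 0.47 in muscle, where leaving out 1 mouse at a time gave 0.27 to 0.67. In fat it was at 0.12, and at -0.12 without mouse 138.

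The genes next to Coq2 on chromosome 5 were read for the same contrast (plot of neighbours). Within 500 kb lie 10 protein-coding genes, of which 9 were tested in muscle and 9 in fat. None was called in either tissue. The nearest is the heparanase gene Hpse, 4.34 kb away, at 0.50 (SE 0.33) in muscle and -0.51 (SE 0.30) in fat. On the other side the nearest tested in both tissues was Cops4, 107 kb away, at -0.07 in muscle and -0.06 in fat. Unadjusted p-values under 0.05 were those of Tmem150c in muscle (0.81, SE 0.35, adjusted p = 0.949, edgeR) and Abraxas1 in fat (0.40, SE 0.11, adjusted p = 0.588). Abraxas1 was at -0.03 in muscle, and Tmem150c was not tested in fat. None of the 8 neighbours tested in both tissues had a positive value in both. Several of their values lay within 1 SE of 0, and the share of all genes positive in both tissues was not counted.

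**Figure D5:**
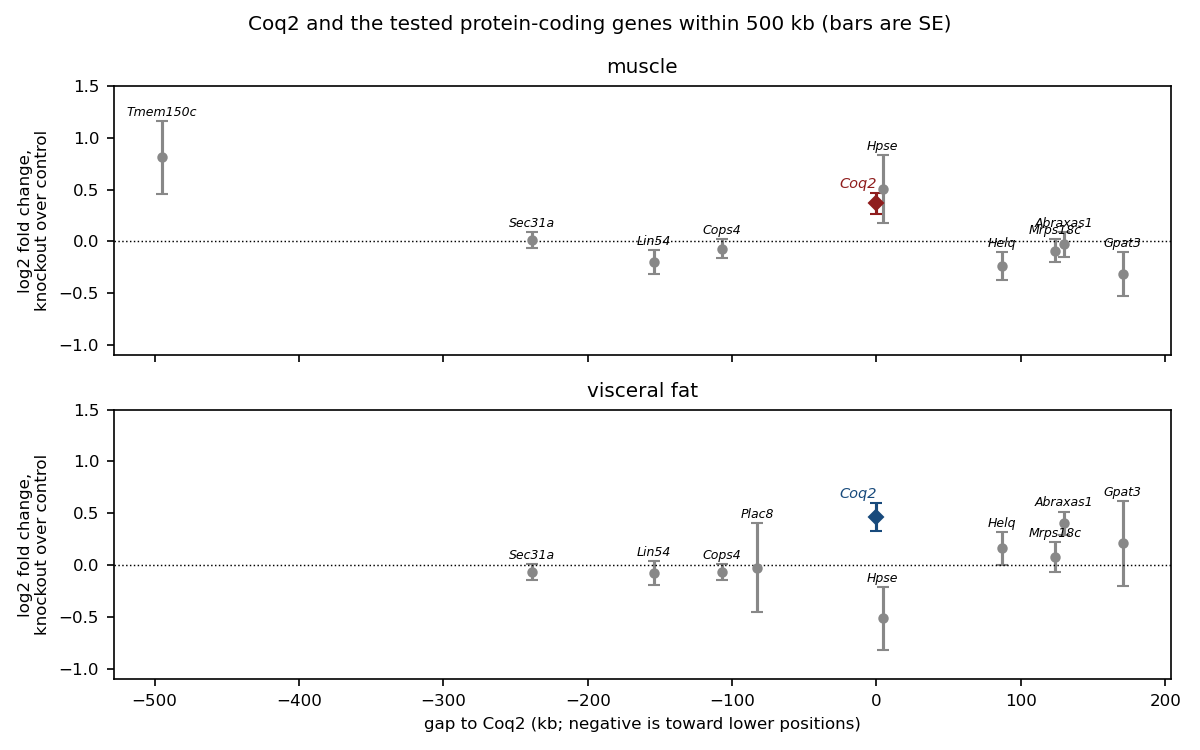
Log2 difference, knockout over control, of Coq2 and of the tested protein-coding genes within 500 kb of it, against the gap to Coq2 in kb, with bars of 1 SE, for muscle (top) and visceral fat (bottom). Coq2 is at 0.37 and 0.46, and the nearest gene, Hpse, at 0.50 and -0.51.

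Within groups, most pairs of the pathway's genes were positively correlated from library to library. After the mean of each of the 4 groups was subtracted, the 45 pairs among the 10 genes had a median Pearson r of 0.45 over 16 libraries, from -0.28 to 0.95, and 42 (93.3%) were positive. Over all pairs of the 17084 genes tested the median was 0.001, and 50.1% were positive. Without the fat library of mouse 138, which was the lowest of its group for Coq3, Coq5, Coq6, Coq7 and Coq9, the median over the 45 pairs was 0.47 and 41 were positive. The members most like Coq2 were Pdss1 (r = 0.70), Coq3 (0.65), Coq5 (0.62) and Coq9 (0.56), and the least like it were Coq4 (-0.26) and Pdss2 (-0.28). Coq8a, at 0.08, did not follow Coq2. Among 17083 other genes the closest to Coq2 were Gm44996 (r = 0.89), Gmfb (0.88), a glia maturation factor gene, and Pyroxd2 (0.87), a mitochondrial oxidoreductase-domain gene, and Pdss1 ranked 153. These points share library, depth and, in pairs, the mouse, and the values are a description with no test.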

How the data were processed

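Stranded libraries from rRNA-depleted total RNA were read on a NovaSeq, per the labels' protocols. The authors deposited raw counts per Ensembl gene, with no scaling, in 1 column per library. Per the submitters' processing notes, the tools were DESeq2 1.22.2, featureCounts 1.6.3 and STAR 2.7.0f, with the build GRCm38. The sources used here give no roles, annotation release, strand setting or treatment of shared reads. All 55536 identifiers were matched to GENCODE M21.

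From these counts, tissue, genotype and their interaction were tested in edgeR 4.0.16 (R 4.3.3) by quasi-likelihood (TMM, filterByExpr, robust), with Benjamini-Hochberg adjustment over all genes tested. Genotype was fitted in each tissue alone. Printed levels are CPM of total counts, and log2 differences are edgeR estimates. The relative comparison used log2(CPM + 0.5) and sign flips over 8 mice, 256 assignments. Its p-values are printed unadjusted. All 10 genes passed the filter on low counts in each fit. Total counts of 13242243 to 21747345 per library set the precision, and counting was without molecular identifiers.

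The genes, the lists and the tests were chosen with earlier results of these data known. All 10 genes were named, with up to 3 genes per list by size of difference, the 3 closest to Coq2 and its tested neighbours. A gene that this rule took is not reported here. Sqor, Fdft1, Gbp9, Tap2, Gm45844, Gm48880 and CT010467.1 were named after their values were seen. Alternatives were other scalings and filters, DESeq2 1.42.0, limma 3.58.1 voom, non-robust estimation, the mouse as block, a joint fit and leaving out each mouse. The fit without mice 131 and 11 was chosen after seeing the data. Same-numbered libraries were paired by the subject labels, and their deviations from the group means correlated at -0.02 to 0.05 in controls and 0.08 to 0.21 in knockouts over 17084 genes. No pair of replicates agreed within sampling noise. The procedure was tested on simulated data with known differences.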

Additional observations from a re-analysis of the deposited data

Results flagged for a closer look

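In the fat of controls, Coq3 was at 19.6 CPM in mouse 138 and at 24.4 to 24.9 CPM in the other 3 mice, a gap of 0.892 of the group's range, past Dixon's limit for 4 samples. It was the only one of the 40 groups of 4 libraries examined (10 genes in 4 groups) to stand out in this way. Chance alone flags about 1 in 20 such groups, so 1 of 40 is no more than chance gives. The fat library of mouse 138 is the one with few adipocyte and many smooth muscle and urothelial transcripts, and their part in this value was not tested.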

How the results depend on the processing

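Scaled by library totals, the members called higher in muscle went from 9 to 3 and those called lower from 0 to 3, and under the other alternatives run these counts were 9 and 0. Between genotypes and in the interaction 0 of 9 were called under every alternative run. With the mouse as replicate block, 9 of the 10 genes were called between tissues and 0 of 9 in the interaction, as without it, so the pairing changed no count. Scaling by library totals turned the tissue difference of Pdss1 (-0.042), Coq2 (-0.23), Coq3 (-0.15), Coq6 (-0.75) and Coq7 (-0.059), the genotype difference of Coq5 in muscle (0.020) and the interaction values of Coq2 (0.0088) and Pdss1 (0.086), as it moves the median of all genes. Leaving out 1 mouse at a time gave values on both sides of 0 in muscle for Pdss2 (-0.016 to 0.172), Coq3 (-0.013 to 0.164), Coq5 (-0.117 to 0.027) and Coq6 (-0.043 to 0.122), and in fat for Coq3 (-0.062 to 0.156), Coq6 (-0.146 to 0.051) and Coq9 (-0.144 to 0.149). Limma voom gave 0.0175 for Coq6 in fat. None of these genotype values passed the test, and the cause was not tested. Relative to the tricarboxylic acid cycle genes, without mouse 131 Coq5 was at -0.20 and Pdss2 at -0.30, with an exact permutation p of 0.0313 for Pdss2. Over all genes, 2 were called between genotypes in muscle and 1 in fat, against 9 and 72 with DESeq2 (7 against 0 in the interaction), 80 in muscle with no filter on low counts, and 10 in muscle without mouse 29. In fat 6 were called without mouse 138 and 0 without mouse 131. At 4 mice a group, differences the size of those of Coq4 and Coq7 did not pass, which does not show that they are absent.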
